A study of Drosophila melanogaster with 12 samples.

Results

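Nucleosome-free stretches of the progenitor genome in which a nucleosome centre was placed in late glia are described here. A gap was a stretch between neighbouring nucleosomes of the progenitor map whose starts lay at most 500 bp apart and that left 150 to 354 bp uncovered. There were 61357 such gaps, and 41819 of them held at least 1 midpoint of a glia nucleosome, 68.2% of all gaps (95% interval 67.8% to 68.5%). The members were chosen by the predicted positions of both maps, so this share is a description. The other 19538 gaps held no glia midpoint and are called unfilled.

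A nucleosome is a stretch of DNA wrapped around a core of histone proteins, and the midpoint of that DNA is called the dyad or, here, the midpoint. Free linker DNA joins one nucleosome to the next. A stretch that is long enough for a nucleosome and carries none leaves its DNA open to transcription factors, and such stretches are typical of active promoters and enhancers. Cells close or open them by moving a neighbouring nucleosome along the DNA, or by assembling or removing one, with ATP-dependent remodelling enzymes. In the fly embryo, the transcription factor Gcm starts glial development, and Repo, a target of Gcm, is kept in nearly all lateral glia.

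The progenitor nuclei, called GNP cells here (Gcm-expressed neural progenitors; the labels call them early glial cells), came from Drosophila melanogaster embryos 5 to 7 h after egg laying. By the labels, these embryos carried gcm-Gal4 and UAS-mCDGFP with the cyo balancer, and UAS-3xFLAG-blrp-mCherry-RanGap. The methods of the paper instead describe embryos from flies without that balancer. The glia nuclei, late glial cells in the labels, came from embryos 12 to 14 h after egg laying. By the labels these carried repo-Gal4 and the same UAS-3xFLAG-blrp-mCherry-RanGap transgene over Tm3B, a balancer that the paper names Tm3. Both lines thus shared the tagged envelope protein through which the nuclei were captured, and only the GNP line carried the membrane GFP. Gcm is also active in precursors of blood cells, which limits the GNP nuclei as a model of neural progenitors. The paper found higher expression and active histone marks at neural progenitor genes than at blood lineage genes. It proposes that the GNP nuclei are mainly neural progenitors. Cell type and embryo age changed together and cannot be told apart. The markers of either cell type could not be checked, since the lists hold positions only. The series has 12 samples, and the 2 with micrococcal nuclease maps were used, with 1 library per cell type and no replicate. For that reason the cell types were not tested against each other, and every difference below compares these libraries.

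On 6 chromosome arms of the dm3 build, 522119 nucleosomes were predicted in GNP and 510664 in glia. Sequencing depth is unknown for both. Fewer reads give fewer and less exact positions, and the part of depth in the results was not tested. Each value for the gaps was set beside the same value after the glia map had been displaced along each arm by 1 to 10 kb in steps of 1 kb, in both directions. These 20 displaced maps have the density and spacing of the glia map, but each nucleosome was moved away from its own place beside the GNP map. Larger features, such as long stretches without calls, can still partly overlap after a short displacement. Values in displaced maps are given as the mean with the range.

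Gaps held a glia midpoint less often than in displaced maps. Displaced glia maps placed a midpoint in 76.7% of the GNP gaps (75.6% to 78.7%), above the 68.2% of the true map. Some displaced nucleosomes came from, and some gaps fell into, long sequence without calls. When gaps lying in distances of over 500 bp between glia neighbours were left out, the true map filled 41780 of 61062 gaps or 68.4% (68.1% to 68.8%), and displaced maps filled 79.4% (79.2% to 79.7%). The low share thus held without these gaps. Since the filter uses the same map that decides filling and mainly removes unfilled gaps, it is not an independent check. One glia midpoint lay in 40033 gaps and 2 in 1786, which is 95.7% and 4.27% of the filled gaps. No gap held more. Displaced maps placed 2 midpoints in 4.62% of all gaps (4.48% to 4.75%), and the true map did so in 2.91%.

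Long gaps were filled more often than short ones. The median length was 182 bp in filled gaps (quartiles 164 and 210 bp) and 171 bp in unfilled gaps (159 and 191 bp). The share filled was 58.0% at 150 to 159 bp (57.2% to 58.9%), 69.8% at 180 to 199 bp (69.0% to 70.6%) and 86.4% at 250 to 299 bp (85.2% to 87.6%). A longer window catches a midpoint more easily, and displaced maps had the same order, with 67.0%, 78.9% and 91.5%. The true map lay below the lowest displaced map in each of the 7 length classes. The longest class, 300 to 354 bp, broke the order with 80.2% (77.5% to 82.6%), while displaced maps filled 92.0% of it. Outside glia distances of over 500 bp, 734 of 840 gaps in this class were filled, or 87.4% (85.0% to 89.5%), against 98.8% in displaced maps (98.0% to 99.5%). About 13 in 100 of these long gaps therefore stayed without a glia midpoint, and displaced maps left almost none. Both shares are raised by the filter itself, which mainly removes unfilled gaps.

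**Figure D1:**
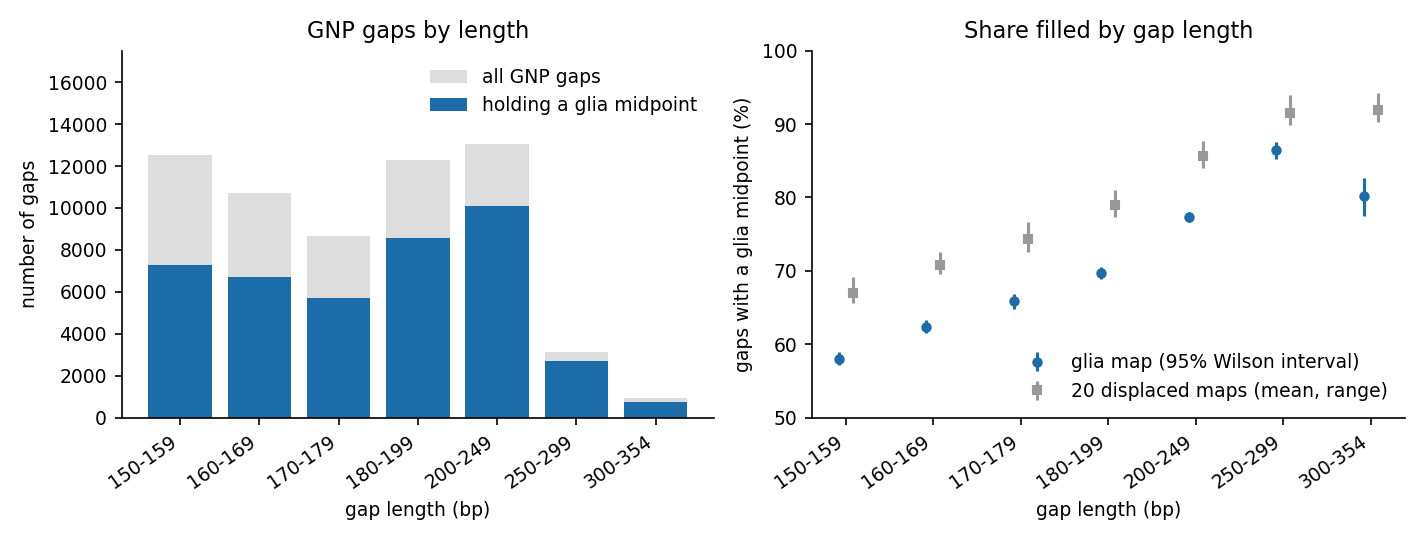
Number of GNP gaps by length in bp (left; grey bars all gaps, blue bars gaps holding a glia midpoint) and the percent filled by length (right; blue points the glia map with 95% Wilson intervals, grey squares the mean and range of 20 displaced maps). The blue points lie below the grey squares in all 7 classes, and the share climbs from 58.0% to 86.4% before it falls to 80.2% in the longest class.

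The thresholds cut through a smooth range. Of 1336 gaps at the lower limit of 150 bp, 749 held a glia midpoint. Just outside, at 149 bp, 735 of 1289 did. At the upper limit of 354 bp, 4 of 5 gaps were filled, and just outside, at 355 bp, 7 of 7. In 2404 filled gaps (5.75%) a glia midpoint lay in the first or last 5 bp of the gap, and in 1672 unfilled gaps (8.56%) it lay within 5 bp beyond an edge. A shift of a few bp would exchange these gaps between the filled and the unfilled.

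Glia midpoints were spread nearly evenly over the gap, while those of displaced maps were more often central. Over the 40033 gaps with a single glia midpoint, 31.5% of midpoints lay in the central part of the gap, 0.333 of its length, and 37.2% did in displaced maps (36.7% to 37.5%). The equal part at the low coordinate held 34.7% and that at the high coordinate 33.9%, so neither side was preferred by more than 1 point. Each bin of 0.05 of the gap length held 4.40% to 5.63% of the midpoints. The bins from 0.05 to 0.1 and from 0.85 to 0.9 of the gap length held 1.27-fold and 1.26-fold the displaced mean, and the bin from 0.4 to 0.45 held 0.813-fold. The median distance from the midpoint to the nearer edge was 44 bp, against 49.9 bp in displaced maps. A nucleosome reaches 73 bp to either side of its midpoint, so most filling nucleosomes covered sequence that belonged to a flanking nucleosome in GNP. Only 21.6% lay wholly inside the gap, and 24.4% did in displaced maps (24.1% to 24.7%).

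**Figure D2:**
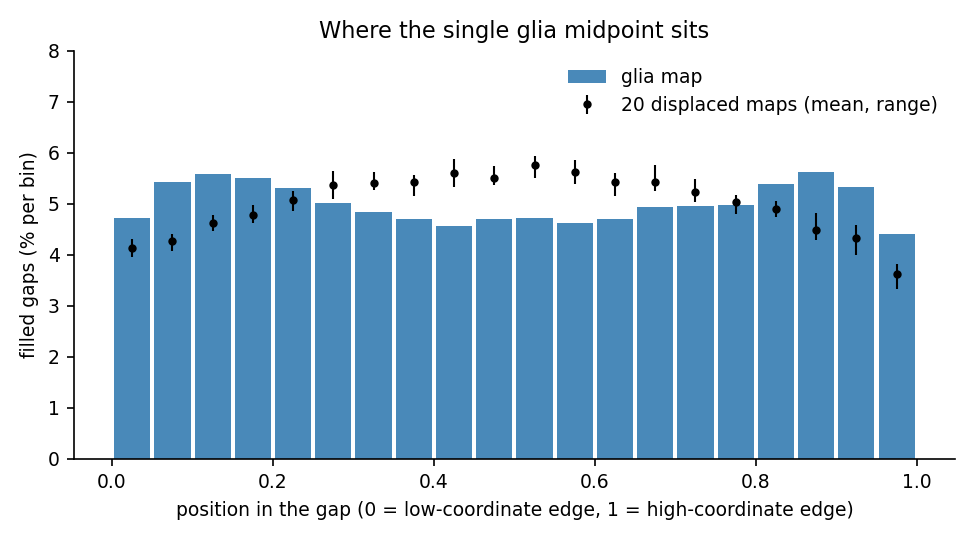
Position of the single glia midpoint in 40033 filled gaps, as a fraction of the gap length from the low-coordinate to the high-coordinate edge, in percent of gaps per bin (blue bars), with the mean and range of 20 displaced maps (black points). The bars exceed the displaced range near both edges and lie under it through the middle, where the central part holds 31.5% of midpoints.

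The central part held fewer midpoints than in any displaced map at every length. Its share grew with the length up to 299 bp and fell in the longest class. In the shortest gaps, 150 to 159 bp, 23.2% of single midpoints lay in the central part, against 33.5% in displaced maps (32.8% to 34.2%). At 200 to 249 bp, which includes room for a nucleosome with linker on both sides, the values were closest, 38.9% and 41.4% (40.3% to 42.2%). At 250 to 299 bp they were 43.5% and 51.2% (49.04% to 53.9%). In the longest class they were farthest apart, 38.6% and 57.5% (53.9% to 61.2%). There the median distance from the glia midpoint to the nearer flanking midpoint was 163 bp, and 189 bp in displaced maps. Both flanks were kept in 15.6% of the filled gaps of this class.

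The nucleosomes that flank a filled gap were then compared between the maps. A flank counted as kept when a glia midpoint lay within 20 bp of its GNP midpoint, which held for 40.3% of all GNP nucleosomes. Of the 83638 flanks of filled gaps, 34.4% were kept (34.1% to 34.7%), under that background. Of the 39076 flanks of unfilled gaps, 55.5% were kept (55.0% to 56.0%), above it. Part of this contrast is built in, because a glia nucleosome in the gap takes room from its neighbours. In displaced maps 17.0% were kept beside filled gaps (16.7% to 17.3%) and 20.3% beside unfilled gaps (19.1% to 22.4%). That contrast is smaller than in the true map, but it cannot measure the built-in part, because fewer flanks are kept in displaced maps. In 12.9% of their unfilled gaps (4.39% to 17.4%) neither flank had a glia midpoint within 73 bp, against 0.292% in the true map. The median distance from a flank to the closest glia midpoint was 53 bp at filled and 16 bp at unfilled gaps, and 38 bp over all GNP nucleosomes.

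Most filled gaps had 1 flank in place and 1 not. In 21936 filled gaps exactly 1 flank was kept, 52.5% (52.0% to 52.9%), against 29.7% in displaced maps (29.3% to 30.2%). The kept flank was the low-coordinate one in 10898 and the high-coordinate one in 11038. Both flanks were kept in 3423, 8.19% (7.93% to 8.45%), against 2.16% in displaced maps (2.00% to 2.35%). Neither was kept in 16460, 39.4% (38.9% to 39.8%), against 68.2% in displaced maps (67.7% to 68.6%). Exactly 1 flank was also kept in 46.2% of unfilled gaps, so this state was not particular to filled gaps. Both flanks were kept in 32.4% of unfilled gaps and in 15.9% of all gaps. The filled gaps therefore keep more of the GNP frame than displaced maps do, but less than unfilled gaps, and usually on one side.

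Read the other way, the state of the flanks went with the share filled. Of the 9752 gaps with both flanks kept, 35.1% held a glia midpoint (34.2% to 36.1%), far under the 57.9% in displaced maps (55.6% to 60.4%). Of the 30954 gaps with 1 flank kept, 70.9% were filled (70.4% to 71.4%), against 76.4% (76.0% to 77.1%). Of the 20651 gaps with neither kept, 79.7% were filled (79.2% to 80.2%), which lies inside the displaced range of 76.1% to 80.5%. That range includes gaps in sequence without glia calls. Outside glia distances of over 500 bp, an alternative chosen after seeing the data, 80.1% of gaps with neither flank kept were filled (79.5% to 80.6%), under the 81.6% in displaced maps (81.3% to 81.9%). The shortfall was then 1.53 points there, 5.56 points with 1 flank kept and 22.8 points with both kept.

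When both flanks stayed, the new nucleosome was centred. Of the 3420 such gaps with a single glia midpoint, 92.9% had it in the central part, at a median of 13.5 bp from the centre of the gap. Displaced maps gave 92.7% (91.5% to 93.8%), since kept flanks leave a midpoint little room. The distance from this nucleosome to its glia neighbours had a median of 173 bp (quartiles 159 and 194 bp). All glia neighbours had a median of 210 bp, but kept flanks and the limits on gap length already set the shorter distance. Both flanks were kept in 1.83% of filled gaps at 150 to 159 bp and in 13.3% at 200 to 249 bp. In displaced maps these shares were 0.671% and 3.46%.

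When 1 flank stayed, the glia nucleosome lay beside the other. Among 21692 such gaps with a single glia midpoint, 69.0% had it in the 0.333 of the gap next to the flank that was not kept, and 1.02% in the same length next to the kept flank. Displaced maps gave 53.2% (52.4% to 54.2%) and 1.54% (1.37% to 1.75%). The most frequent distance from the GNP midpoint of the flank that was not kept to the filling glia midpoint was 93 bp, and 127 bp on average in displaced maps (122 to 133 bp). The filling midpoint lay 73 to 120 bp from that flank in 55.3% of these gaps, against 39.9% in displaced maps (39.3% to 40.8%). In 33.2% the flank that was not kept still had another glia midpoint within 73 bp, against 40.7% (40.2% to 41.2%). In the rest, the nucleosome in the gap was the closest glia counterpart on that side or the next one lay farther out.

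Glia midpoints around the flanks of filled gaps formed separate peaks. Averaged over both flanks, the frequency of glia midpoints was highest at the GNP midpoint itself, with 1.37% of flanks per bp. It fell to 0.272% per bp at -31 bp, on the side away from the gap, and had another peak of 0.598% at -84 bp. Inside the gap it peaked with 0.682% at 94 bp, dropped to 0.419% at 152 bp and peaked again with 0.634% at 219 bp. Since both flanks are averaged, a peak beside one flank also appears at its distance from the other. In displaced maps the frequency had a broad peak of 0.527% at -73 bp, and in the gap it was nearly even, from 0.556% at 129 bp to 0.575% at 179 bp. Beside unfilled gaps the central peak reached 2.26% per bp, and there was no peak near -84 bp. On their gap side the frequency rose to 0.814% at 67 bp and then fell to 0, since by the rule unfilled gaps hold no midpoint. Farther out, a peak of 0.604% lay at -175 bp beside filled gaps and one of 0.812% at -180 bp beside unfilled gaps. At filled gaps, glia midpoints were thus most frequent at the GNP position, with lower peaks 84 to 94 bp to either side of it. Between the peaks they were less frequent but not absent.

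**Figure D3:**
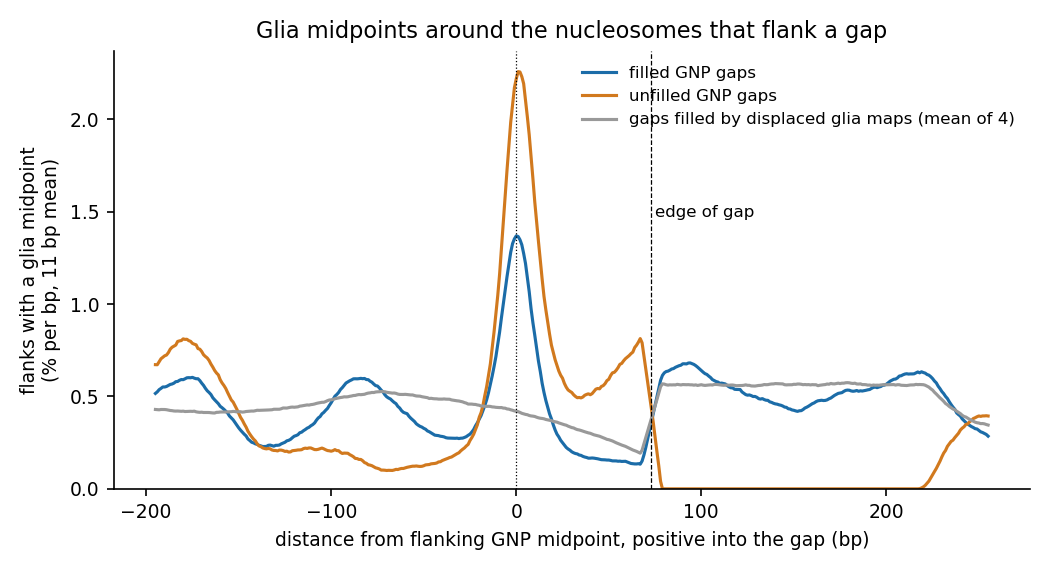
Frequency of glia midpoints by distance from the GNP midpoints of both nucleosomes that flank a gap (x axis in bp, positive into the gap; y axis percent of flanks per bp, smoothed over 11 bp), for filled gaps (blue), unfilled gaps (orange) and gaps filled by 4 displaced maps (grey, displaced by 1 and 2 kb). The dashed line at 73 bp marks the edge of the gap. The blue line has peaks at 0, -84 and 94 bp, and others at -175 and 219 bp. The grey line has none at 0 or 94 bp and a broad, lower one of 0.527% at -73 bp.

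The direction of the flank shifts differed between filled and unfilled gaps. Among flanks with a glia midpoint within 73 bp, that midpoint lay away from the gap for 55.7% of the flanks of filled gaps and toward it for 41.9%. Beside unfilled gaps 31.5% lay away and 66.0% toward the gap. Displaced maps gave 60.6% away beside filled and 74.9% toward beside unfilled gaps, so both directions follow in large part from whether a nucleosome sits in the gap.

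The difference was local. For the second nucleosome from the gap, 38.5% were kept beside filled gaps (38.2% to 38.9%) and 44.6% beside unfilled gaps (44.1% to 45.1%). For the third, the shares were 40.1% (39.8% to 40.5%) and 41.2% (40.7% to 41.7%), and at the eighth they were 40.4% in both. In filled gaps with 1 flank kept, the second nucleosome was kept in 48.0% on the kept side (47.4% to 48.7%) and in 33.1% on the other (32.5% to 33.7%). Displaced maps had the same order, 24.3% on the kept side and 16.2% on the other, since the rule sorts the sides by their first nucleosome. At the third nucleosome the shares of the true map were 40.9% (40.2% to 41.5%) and 39.5% (38.9% to 40.2%), and at the fifth 40.5% on both sides. From the third nucleosome on, every share lay within about 1 point of the 40.3% of all GNP nucleosomes, though some intervals exclude it, such as that of the third beside unfilled gaps.

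**Figure D4:**
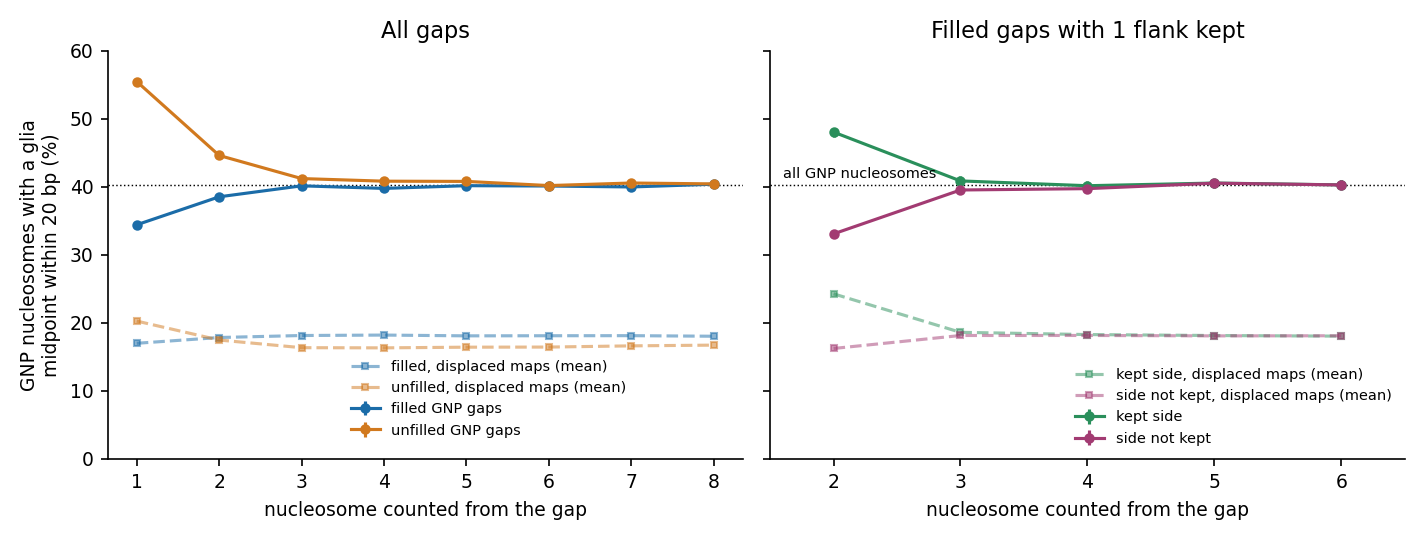
Percent of GNP nucleosomes with a glia midpoint within 20 bp, by their order from the gap, for filled and unfilled gaps (left) and for both sides of filled gaps with 1 flank kept (right). Solid lines are the glia map with 95% Wilson intervals, dashed lines the mean of 20 displaced maps, and the dotted line is the 40.3% of all GNP nucleosomes. The solid lines lie within about 1 point of the dotted line from the third nucleosome on.

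Over the window of both flanking nucleosomes, most filled gaps had no net gain of nucleosomes. From 73 bp before the low to 73 bp after the high flanking midpoint, where GNP has 2 nucleosomes, glia had 2 midpoints in 24773 filled gaps, 59.2% (58.8% to 59.7%). It had 3 in 14252, 34.1% (33.6% to 34.5%), and 1 in 2693, 6.44% (6.21% to 6.68%). In 101 filled gaps there were 4. A net gain, 3 or more, was thus found in 34.3% (33.9% to 34.8%), somewhat above the 31.0% in displaced maps (30.7% to 31.4%). The share and its excess over displaced maps, 3.28 points here, depend on the definition. The share was 71.6% where the whole glia nucleosome had to lie in the gap, 20.3 points above displaced maps. With a window of 20 bp beyond the flanking midpoints it was 11.05%, 6.40 points above them. In the main setting a net gain was found in 21.2% at 150 to 159 bp, in 44.2% at 200 to 249 bp and in 66.2% at 300 to 354 bp. Displaced maps gave 21.7%, 38.6% and 66.7%. The excess over displaced maps was therefore seen at middle lengths and not at either end. Within 1 kb on either side of the gap's centre, glia had 9.01 nucleosomes on average and GNP 8.63 around filled gaps, a difference of 0.384 ± 1.14 (SD over gaps). In displaced maps the difference was 0.331 (0.308 to 0.339). Around unfilled gaps it was -0.0813 in the true map and -0.939 in displaced maps (-1.37 to -0.144), so sorting gaps by a midpoint already separates the numbers.

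A glia gap close to a filled gap was uncommon, and how it compared with displaced maps depended on the distance. A glia gap had its centre within 100 bp of the centre of 5.61% of filled gaps (5.40% to 5.84%), more often than in displaced maps, 4.41% (4.24% to 4.58%). It had its centre within 200 bp of the centre of 13.9% of filled gaps (13.6% to 14.3%), less often than in displaced maps, 18.0% (17.5% to 18.3%). The GNP spacing outside the flanks did not set filled gaps apart. The distance from a flank to the next GNP nucleosome had a median of 205 bp at filled and 206 bp at unfilled gaps.

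The 1786 gaps with 2 glia midpoints were longer, with a median of 236 bp. The 2 midpoints lay 172 bp apart in the median, close to the 171 bp of displaced maps. In 52.0% of them neither flank had a glia midpoint within 73 bp, and at least 1 flank was kept in 13.8%, against 7.00% in displaced maps (6.43% to 7.91%). The shortest gaps of this kind were as follows. A gap of 152 bp on arm X, from 18493387 to 18493539, held glia midpoints at 18493389 and 18493537, each 75 bp from a flanking GNP midpoint. A gap of 153 bp on arm 3R, from 24251522 to 24251675, held them at 24251525 and 24251674. Another on arm X, 154 bp from 12221689 to 12221843, held them at 12221690 and 12221840. In all 3 the glia nucleosomes straddled the edges of the GNP gap and left 2 to 4 bp between them, so that the gap was almost wholly covered. As the shortest of the 1786, they are not typical.

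At the other extreme, 6 filled gaps had both flanks at exactly the GNP position and a single nucleosome added between them. Displaced maps had 0.700 such gaps on average (0 to 2). Of these, 3 lay on arm 3L, 2 on 3R and 1 on X. On arm 3R, the gap from 911062 to 911220 (158 bp) had flanking midpoints at 910989 and 911293 in both maps, and the glia midpoint at 911140 lay 151 and 153 bp from them. On arm 3L, the gap from 16971559 to 16971748 (189 bp) held a glia midpoint at 16971640, at 154 and 181 bp from the flanks. On arm X, the gap from 17631789 to 17632022 (233 bp) held one at 17631883, at 167 and 212 bp. The 3R example is close to the tightest packing these maps can show, since predicted nucleosomes never overlapped in either list.

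Gaps near a filled gap were filled slightly more often, but displaced maps gave larger differences on average. The median distance between successive filled gaps was 1971 bp. The gap after a filled gap was filled in 68.7%, and the gap after an unfilled one in 67.0%, a difference of 1.68 points (0.886 to 2.48). The difference was 6.79 points for gaps that share a flanking nucleosome, 3.28 points for other gaps within 1 kb, and -0.00331 points for gaps farther apart. Displaced maps gave 6.06 points over all neighbouring gaps (0.393 to 9.39), a larger mean with the true value inside the range. For the same groups in turn they gave 9.55 points (0.739 to 13.8), 7.72 points (0.970 to 11.6) and 4.65 points (-0.301 to 8.03). The true values again lay under these means and inside the ranges. Outside glia distances of over 500 bp the order turned, with 1.58 points in the true map and -0.232 points in displaced maps (-0.755 to 0.292). For gaps that share a nucleosome the values were then 6.69 and -1.09 points (-2.18 to -0.0564). This filter uses the map that decides filling and is not an independent check. Whether filled gaps cluster beyond displaced maps is therefore not settled.

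Successive filled gaps formed 13094 runs of 3.19 gaps on average, and unfilled gaps formed runs of 1.49 on average. Displaced maps had runs of 4.57 filled gaps (4.49 to 4.72) and of 1.39 unfilled gaps (1.28 to 1.46). The longest run of filled gaps had 28 gaps over 55.6 kb on arm 3L, from 15172630 to 15228133, with 257 GNP and 258 glia nucleosomes. Displaced maps had longest runs of 33 to 47 gaps. The longest unfilled run had 9 gaps over 14.0 kb on arm 2L, from 1037062 to 1050950, with 67 GNP and 61 glia nucleosomes and a median gap of 155 bp, and 2 other runs had the same number. Over 1198 windows of 100 kb with at least 20 gaps, the share filled had a median of 68.4% and an SD of 6.93 points, little more than the 6.61 points that counting alone gives. The SD in displaced maps was 7.50 points (6.27 to 8.57), with 5.99 from counting, so the true spread was no larger than theirs.

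Single windows stood out by little. The highest shares were 43 of 49 gaps (87.8%, 75.8% to 94.3%) at 9100001 to 9200000 on arm 2R, 40 of 46 (87.0%, 74.3% to 93.9%) at 700001 to 800000 on 3L, and 38 of 44 (86.4%, 73.3% to 93.6%) at 19100001 to 19200000 on 2R. The lowest were 26 of 60 (43.3%, 31.6% to 55.9%) at 21600001 to 21700000 on X, 24 of 53 (45.3%, 32.7% to 58.5%) at 9500001 to 9600000 on 3R, and 13 of 28 (46.4%, 29.5% to 64.2%) at 21100001 to 21200000 on 2R. The window on X had few calls, with 250 GNP and 242 glia nucleosomes, while that on 3R had 457 and 438. The window at the end of 2R had 209 and 202, but the calls of the arm end inside it, so it spans less sequence. These 6 were picked as extremes of 1198.

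Over all gaps, the arms differed by 2.81 points at most (-0.591 to 6.21), under the displaced mean of 4.36 points (1.66 to 6.63). The share filled ran from 67.8% on 3L (67.0% to 68.6%) to 68.6% on 3R (67.9% to 69.4%) over the 5 large arms. On arm 4, the small and largely heterochromatic dot chromosome, 518 of 787 gaps were filled, 65.8% (62.4% to 69.0%), an interval that overlaps those of the other arms. Outside glia distances of over 500 bp the spread was 2.44 points, and displaced maps gave 2.34 points (0.503 to 4.50). It was wider under some other definitions. For gaps of 200 bp or more it was 7.15 points, from 73.1% on arm 4 (66.7% to 78.6%) to 80.2% on 3R (78.9% to 81.5%). For glia gaps holding a GNP midpoint, an alternative added after seeing the data, it was 8.09 points (4.51 to 11.7). That lies barely above the displaced range of 1.88 to 8.05. Arm 4 had the most gaps, 595 per Mb, and 391 filled gaps per Mb, and the large arms had 336 to 350 filled gaps per Mb. The displaced mean lay 7.55 to 9.06 points above the true share on the 6 arms. Both flanks were kept in 8.01% to 8.69% of filled gaps, and a net gain was found in 33.3% to 34.9%, with overlapping intervals for both flanks on all arms. With each arm cut into 5 equal parts, the part of 2R next to the centromere, its low-coordinate end, had the lowest share, 63.3% (61.2% to 65.4%), and 308 filled gaps per Mb. The other parts of 2R had 68.3% to 69.9%. Displaced maps were low there as well, with 71.2% against 76.9% to 78.2%.

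**Figure D5:**
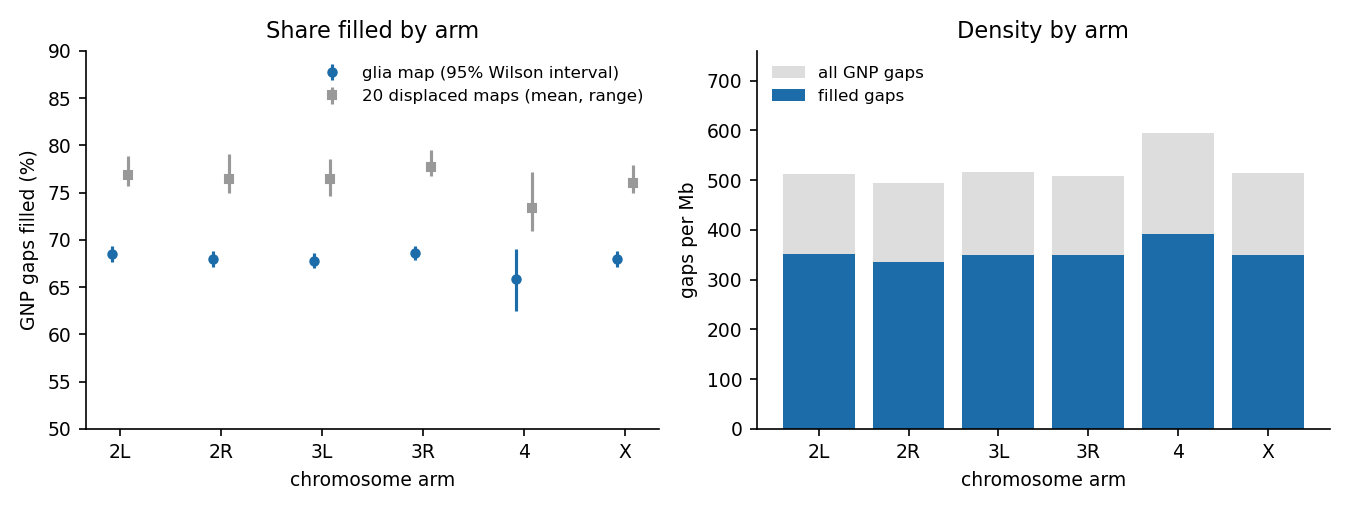
Percent of GNP gaps holding a glia midpoint by chromosome arm (left; blue points the glia map with 95% Wilson intervals, grey squares the mean and range of 20 displaced maps) and the number of gaps per Mb (right; grey bars all GNP gaps, blue bars filled gaps). The true shares lie between 65.8% and 68.6% and under the displaced range on each of the 6 arms.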

How the data were processed

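Per the methods of the study, the authors aligned the reads to dm3 with Bowtie (version 0.12.7 in the submitters' processing notes, which also name bedtools), kept unique alignments and predicted nucleosomes with GeneTrack, whose settings are not given in the sources used here. Each deposited list has 3 columns, chromosome, start and end, with end minus start of 146 bp throughout, and no occupancy. Positions are printed as in the lists and were not shifted, since the sources do not say from which base the lists count.

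The midpoint was the start plus 73 bp. A midpoint counted as inside a gap from the printed end up to the next start. Displaced glia maps were wrapped at the ends of each arm. Wilson intervals (95%) cover counting error only, and neighbouring nucleosomes are not independent. The counting was tested on simulated data with Python 3.11.15 and NumPy 2.4.6. Named regions follow fixed rules: on each arm, the filled gap with both flanks at 0 bp and the most central midpoint, the 3 shortest gaps with the most glia midpoints, the longest runs, and the 3 windows at either extreme. The members, rules and lists were chosen with earlier results of these data known. The 10 ChIP-seq samples, genes and sequences were not analysed here, since no genome or annotation of the dm3 build was used.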

Additional observations from a re-analysis of the deposited data

How the results depend on the processing

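The 7 results were recomputed under other settings, giving 34 values. Of these, 10 stayed inside the 95% interval of the reported value and 24 moved. The intervals are narrow because the numbers are large. The cause was not tested except where the definition itself sets the change. Against displaced maps, 30 of the 34 kept the direction and 4 did not. Of these 4, 3 concern neighbouring gaps and the spread over arms.

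For gaps of 200 bp or more, 79.2% were filled, 39.7% of single midpoints lay in the central part, both flanks were kept in 13.8%, 37.3% of flanks were kept, 47.9% had a net gain and the spread over arms was 7.15 points instead of 2.81, with 73.1% on arm 4 (152 of 208) and 80.2% on 3R. With the whole glia nucleosome required inside the gap, 14.7% were filled, 92.2% lay in the central part, 32.3% kept both flanks, 56.5% of flanks were kept, 71.6% had a net gain and neighbouring gaps differed by 0.301 points. The central part then exceeded displaced maps by 0.342 points, because a whole nucleosome fits only near the centre. With a flank kept within 10 bp, both were kept in 3.97% and 24.5% of flanks were kept. Within 40 bp these were 14.2% and 44.3%. The central 0.5 of the gap held 47.9%. With the window reaching only 20 bp past the flanking midpoints, 11.05% had a net gain. Without an upper limit on the gap, 67.4% were filled.

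In the reverse direction, 45272 of 65097 glia gaps held a GNP midpoint, 69.5%, with 34.6% in the central part, 9.97% with both flanks kept, 36.2% of flanks kept and 39.4% with a net gain. The spread over arms was then 8.09 points. It is one of 4 values added after seeing the data, the others being the shares filled by flanks kept outside glia distances of over 500 bp. These 4 are not among the 34 values. The spread turned from 1.55 points below displaced maps to 3.82 points above them. The share filled with neither flank kept turned from 2.10 points above displaced maps to 1.53 points below them. Depth is unknown and limits every difference. No paired analysis was possible because there is 1 library per cell type.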
